A study of Mus musculus with 6 samples.

Results

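The genes described here are 10 textbook targets of the glucocorticoid receptor, taken by name from a table of transcript levels in mouse quadriceps muscle: Tsc22d3, Zbtb16, Klf9, Sgk1, Cebpb, Cebpd, Dusp1, Nfkbia, Errfi1 and Cdkn1a. They are 10 of 33641 gene symbols and hold 36 of 105129 transcript rows. Every row with a member's symbol was kept, each row was read on its own, and rows were summed to give the gene. All 10 genes were at 1 TPM (transcript per 1000000 transcripts, adjusted for length) or more in every library, so all 10 entered the test over 11099 genes.

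Quadriceps was taken from 6 male littermates bred from heterozygous parents, at 4 months of age (about 16 weeks) and about 4 h after lights on, which is the hour named ZT4. In 3 mice both copies of Nr3c1, the glucocorticoid receptor gene, carried a mouse copy of the human variant rs6190; these are called homozygous. The other 3 mice had the reference allele on both copies and are called WT. Both groups were untreated as far as the labels say, so the comparison is of the allele at the animals' own hormone level at that hour. The allele came through the germline, and so was not limited to muscle fibres. Each library is 1 mouse per its label, and p-values measure the spread between those mice.

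The glucocorticoid receptor is a transcription factor held in the cytoplasm by chaperones until cortisol or corticosterone binds it. It then enters the nucleus and binds DNA, in the classical case as a dimer on a palindrome of the hexamers AGAACA and TGTTCT with a spacer of any bases between them, and many of the genes nearby are transcribed more. The 10 genes are standard readouts of that step: several encode proteins that restrain inflammatory and growth signals, and others are transcription factors that carry the response on to further genes. In muscle, glucocorticoids are known for promoting protein breakdown and reducing glucose uptake.

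The tissue matched its label as skeletal muscle: the 13 fast-fibre muscle markers summed to between 132283 and 289137 of the 1000000 TPM in a library. These markers do not show which muscle was taken, so quadriceps rests on the labels. Nr3c1 itself was 20.0, 19.7 and 19.5 TPM in homozygous replicates 1 to 3 and 11.5, 14.8 and 8.07 TPM in the WT replicates; a level cannot check an allele of this kind, so the genotype rests on the labels. WT replicate 3 stood apart, with the highest fast-fibre sum and the lowest slow-fibre sum (245 TPM, against 1123 to 9714 TPM in the other libraries), and 14.3% of its TPM in mitochondrially encoded transcripts against 20.9% to 33.9%. Within the fast-fibre list Myh1 and Myh2 went the other way and were lowest in that library. They were 239 and 122 TPM there, against 315 to 1253 and 272 to 728 TPM in the other libraries. WT replicate 3 was the highest of the 6 libraries for 4 of the 10 genes and the lowest for 1. Values are therefore given below with and without WT replicate 3 where it matters. Over all tested genes the median difference was 0.26 (homozygous minus WT, in units of log2(TPM + 1)), so a fold change of a gene is also given relative to that median; under median centring the median of all genes was -0.04.

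None of the 10 genes passed the test. In limma with Benjamini-Hochberg adjustment over all genes, 0 of 10 had an adjusted p under 0.05, as had 0% of the 11099 genes; at an unadjusted p under 0.05 the fit had 2636 genes higher and 61 lower in homozygous muscle. Zbtb16, Errfi1, Klf9 and Cebpb were higher in all 3 homozygous libraries than in all 3 WT libraries. These 4 of 10 stand beside 34.7% of all tested genes with the same separation, a share near that of the members, and 0 of 10 were below without overlap, beside 0.73% of all genes. With array weights, which count WT replicate 3 least, limma called 3 of the 10 (Cebpb, Errfi1 and Zbtb16), beside 7.3% of all genes. The members' median difference was 0.27, against 0.26 over all genes. As reported, 9 of the 10 had a positive difference, beside 9526 of all 11099 tested genes, a share near that of the members. Under quantile normalization, median centring or removal of a length trend 5 of the 10 had a positive difference. The all-gene medians were then -0.007, -0.04 and -0.01. Tsc22d3, the most used readout of the hormone, was 154 ± 19.2 TPM (SD, n = 3) in homozygous and 152 ± 46.3 TPM (SD, n = 3) in WT muscle.

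**Figure D1:**
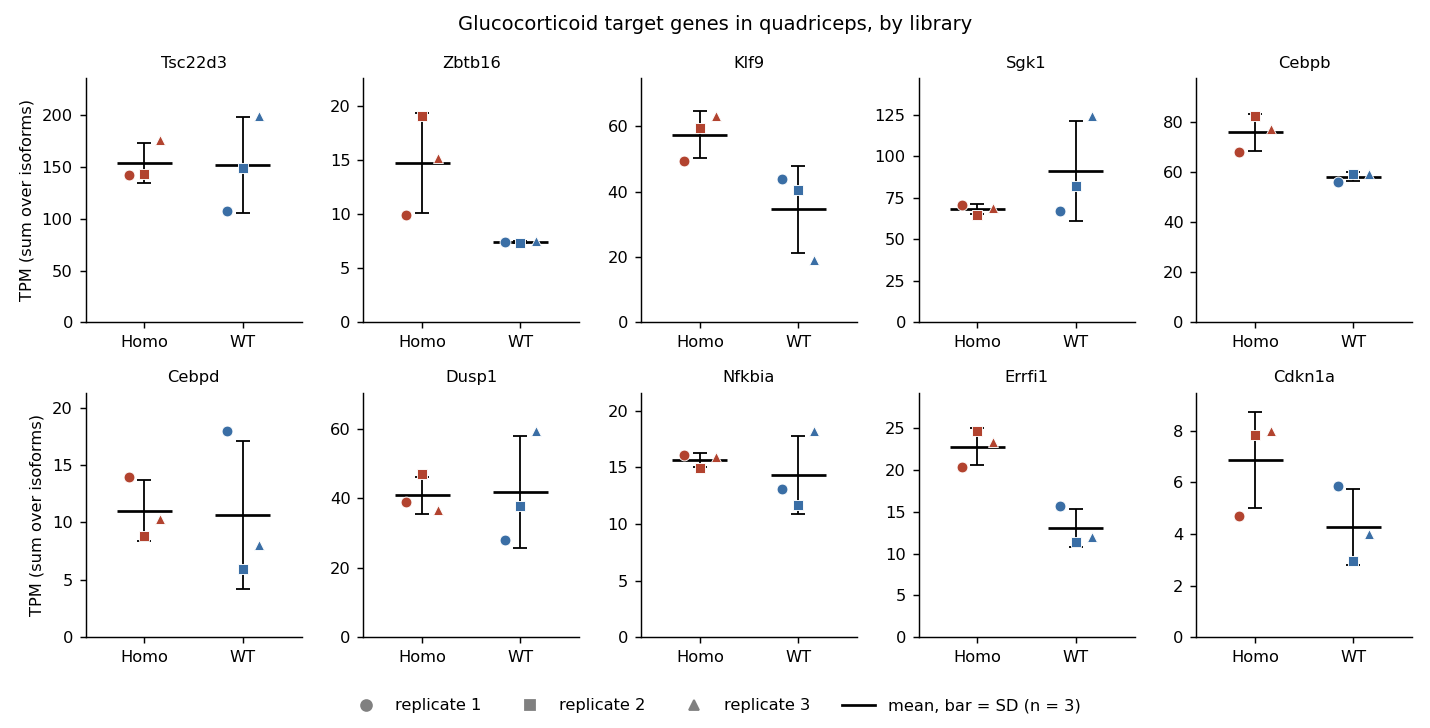
TPM of each of the 10 genes (y axis, summed over isoforms, each panel on its own scale from 0) in the 3 homozygous (Homo) and 3 WT libraries, with marker shape for the replicate number and bars for the mean and SD. Zbtb16, Klf9, Cebpb and Errfi1 show homozygous libraries above every WT library, and in Tsc22d3, Sgk1, Dusp1 and Nfkbia WT replicate 3 is the highest point.

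The genes covered a wide span of levels, which TPM allows to be compared because it is per length. In order of the mean TPM over the 6 libraries they ran Tsc22d3 (153), Sgk1 (79.8), Cebpb (67.1), Klf9 (46.0), Dusp1 (41.4), Errfi1 (17.9), Nfkbia (15.0), Zbtb16 (11.1), Cebpd (10.8) and Cdkn1a (5.57). Tsc22d3 lay between percentiles 93.8 and 96.3 of the tested genes of a library, and Cdkn1a between percentiles 26.9 and 48.9. Several neighbours in this order changed places between libraries: Sgk1 and Cebpb, Klf9 and Dusp1, Errfi1 and Nfkbia, Nfkbia and Zbtb16, and Zbtb16 and Cebpd. The other neighbours kept their order in all 6 libraries.

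Among the transcription factors, Zbtb16 (PLZF, a zinc-finger repressor with a BTB domain; chr9:48654297-48836222, minus strand, GRCm38) had the largest positive difference of the 10 in the fit as reported. It was 9.92, 19.1 and 15.2 TPM in homozygous replicates 1 to 3 and 7.43, 7.37 and 7.49 TPM in WT. The groups did not overlap, and the SD over the WT libraries was 0.0603 TPM while that over the homozygous libraries was 4.62 TPM. The difference of log2(TPM + 1) was 0.86 (SE 0.22, limma adjusted p = 0.168), or 0.59 relative to all genes, and the ratio of means was 1.99 with WT replicate 3 and 1.99 without it.

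Klf9, a Krüppel-like zinc-finger factor (chr19:23141226-23168134, plus strand), was 49.5, 59.6 and 63.2 TPM in homozygous and 43.9, 40.5 and 19.2 TPM in WT libraries. All homozygous libraries were higher, but WT replicate 3 was far below the other two WT libraries. Its log2 difference was 0.79 (SE 0.29, limma adjusted p = 0.178), and 0.43 without WT replicate 3 (limma adjusted p = 0.176). The slow-fibre markers differed in the same direction. All 11 of 11 had a higher fitted mean in homozygous muscle, as had 9526 of all 11099 tested genes. Of the 11, 7 were above without overlap, beside 34.7% of all genes. The sum of the 11 was 1902, 9714 and 2241 TPM in homozygous replicates 1 to 3. In the WT replicates it was 1738, 1123 and 245 TPM, with none of the 11 at 0. Homozygous replicate 2 was far above the other libraries in this sum, and homozygous replicates 1 and 3 were close to WT replicate 1. With a slow-fibre score as a term of the fit, the Klf9 difference was 0.22 (limma adjusted p = 0.841) and that of Zbtb16 0.61 (limma adjusted p = 0.779). The median over all genes was 0.16 in that fit. The score was lowest in WT replicate 3 (3.41, against 5.78 to 8.87 in the other libraries). The part of fibre type in these differences was not tested.

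Cebpb and Cebpd encode C/EBP leucine-zipper factors that act in stress, metabolic and acute-phase responses. Cebpb (chr2:167688915-167690418, plus strand, a gene with no intron) was 68.0, 82.6 and 77.3 TPM in homozygous and 56.2, 59.3 and 59.2 TPM in WT libraries. The groups did not overlap and the 3 WT libraries were close together. Its log2 difference was 0.37 (SE 0.12, limma adjusted p = 0.171), or 0.11 relative to all genes, and 0.39 without WT replicate 3.

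Cebpd (chr16:15887286-15891031, plus strand) was 14.0, 8.84 and 10.3 TPM in homozygous and 18.0, 5.92 and 8.02 TPM in WT libraries. The highest and the lowest library were both WT, and replicate 1 of each group was the highest of its group. The log2 difference of 0.16 (SE 0.36, limma adjusted p = 0.771) was smaller than its error, and it changed sign under several settings.

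**Figure D2:**
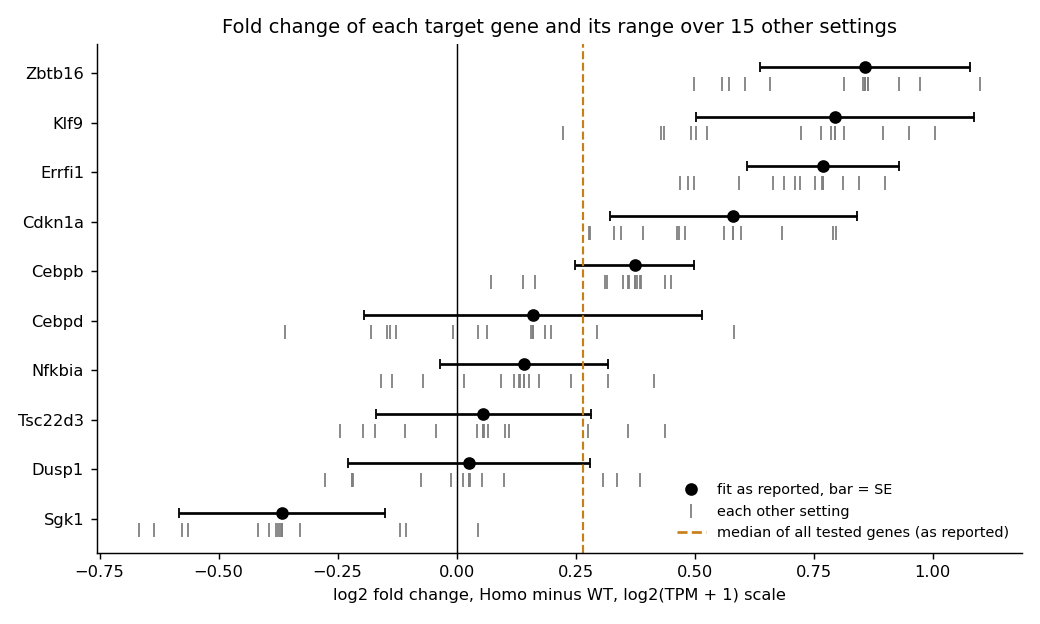
Log2 fold change of each gene (x axis, homozygous minus WT, in log2(TPM + 1) units), with the fit as reported as a point with its SE, each of 15 other settings as a tick, and the median of all tested genes (0.26) as a dashed line. Zbtb16, Klf9, Errfi1, Cdkn1a and Cebpb stay above 0 in every setting shown, whereas Cebpd, Nfkbia, Tsc22d3 and Dusp1 have ticks on both sides and Sgk1 is above 0 in 1 setting.

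The second set of genes encodes proteins that restrain growth-factor and inflammatory signals. Errfi1 (MIG6, a feedback inhibitor of the EGF receptor; chr4:150853919-150868892, plus strand) was 20.4, 24.7 and 23.3 TPM in homozygous and 15.7, 11.4 and 12.03 TPM in WT libraries. The lowest homozygous library was well above the highest WT library. Its log2 difference was 0.77 (SE 0.16, limma adjusted p = 0.168), or 0.51 relative to all genes, and 0.72 without WT replicate 3. It was the one member with all homozygous libraries above WT under quantile normalization, median centring and removal of a length trend. In these settings 8.05%, 6.79% and 7.42% of all genes had homozygous libraries above. Sgk1 was apart in the other direction there, as given below.

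The start of Errfi1-201, its most abundant isoform, is shown because Errfi1 kept this separation. The run is the 250 bases before the RefSeq start (GRCm38.p6, chr4:150854820-150855069, plus strand), and capitals mark TGACGTCA, the palindrome bound by CREB-type factors, and TATAAA.
Errfi1: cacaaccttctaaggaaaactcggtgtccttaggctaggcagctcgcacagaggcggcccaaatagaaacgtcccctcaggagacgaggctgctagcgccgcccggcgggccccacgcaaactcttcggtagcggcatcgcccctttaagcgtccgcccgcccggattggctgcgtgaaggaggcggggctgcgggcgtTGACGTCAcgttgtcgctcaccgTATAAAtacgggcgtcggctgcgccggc
TGACGTCA, searched on both strands, is in 1.55% of 32851 RefSeq start windows of this length. It begins 51 bases before the Errfi1 start, within an intron of Errfi1-202, which starts further upstream. Among the members the Dusp1 window also holds it, 143 bases before that gene's RefSeq start. TATAAA is in 12.4% of the windows.

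Dusp1 (MKP-1, a phosphatase that switches off p38 and JNK MAP kinases; isoform Dusp1-202 at chr17:26505590-26508519, minus strand) was 39.1, 46.9 and 36.6 TPM in homozygous and 28.1, 37.8 and 59.6 TPM in WT libraries. The homozygous libraries lay between the extremes of WT. The log2 difference was 0.03 (SE 0.25, limma adjusted p = 0.951), negative under the 3 rescalings named above, and 0.31 without WT replicate 3 (limma adjusted p = 0.297).

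Nfkbia (I-kappa-B alpha, which holds NF-kB in the cytoplasm; chr12:55489410-55492647, minus strand) was 16.1, 14.9 and 15.9 TPM in homozygous and 13.1, 11.6 and 18.3 TPM in WT libraries. The homozygous libraries were close together, above WT replicates 1 and 2 and below WT replicate 3. The log2 difference was 0.14 (SE 0.18, limma adjusted p = 0.596), negative under the 3 rescalings, and 0.32 without WT replicate 3 (limma adjusted p = 0.194), where the groups no longer overlapped, as in 42.3% of the genes tested in that fit. The window before its start (GRCm38.p6, chr12:55492648-55492897, minus strand) is shown because Nfkbia is also a classical target of NF-kB, and capitals mark the match to the NF-kB motif, searched by name on both strands and present in 7.25% of all windows.
Nfkbia: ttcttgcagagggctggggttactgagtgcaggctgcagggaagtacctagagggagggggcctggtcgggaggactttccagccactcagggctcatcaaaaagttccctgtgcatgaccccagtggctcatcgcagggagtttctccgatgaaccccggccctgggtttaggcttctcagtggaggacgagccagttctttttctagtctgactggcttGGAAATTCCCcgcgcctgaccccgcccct
The match begins 29 bases before the RefSeq start.

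Tsc22d3 (GILZ, a leucine-zipper protein that binds NF-kB and AP-1; chrX:140539528-140600659, minus strand) was 142, 144 and 176 TPM in homozygous and 107, 149 and 199 TPM in WT libraries. WT held both the lowest and the highest library. The log2 difference was 0.06 (SE 0.23, limma adjusted p = 0.873), negative under the 3 rescalings, or -0.21 relative to all genes, and 0.28 without WT replicate 3.

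Cdkn1a (p21, an inhibitor of cyclin-dependent kinases; chr17:29090976-29100727, plus strand) was 4.71, 7.85 and 8.01 TPM in homozygous and 5.87, 2.95 and 4.00 TPM in WT libraries. Homozygous replicate 1 lay below WT replicate 1, so the groups overlapped. The log2 difference was 0.58 (SE 0.26, limma adjusted p = 0.214), or 0.32 relative to all genes.

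Sgk1, a kinase that controls ion channels and phosphorylates FoxO factors, had the only negative difference of the 10 (chr10:21882184-21999903, plus strand). It was 70.9, 64.8 and 69.1 TPM in homozygous and 66.9, 82.3 and 125 TPM in WT libraries. WT replicate 1 lay among the homozygous libraries and WT replicate 3 was far above all others. The log2 difference was -0.37 (SE 0.22, limma adjusted p = 0.300), or -0.63 relative to all genes. Without WT replicate 3 it was -0.12 (limma adjusted p = 0.575), and with the slow-fibre score in the fit it was 0.045. Under quantile normalization, median centring and removal of a length trend every homozygous library was below every WT library, as were 7.34%, 8.38% and 7.19% of all genes.

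Sgk1 is also the member whose start windows hold a receptor palindrome. The palindrome of AGAACA, any 3 bases and TGTTCT, searched on both strands, was in 1 of the 17 RefSeq windows of 8 members and in 3 of all 32851 windows (0.00913%). Zbtb16 and Cebpd had no window in the table used. The windows before the starts of Sgk1-202 (GRCm38.p6, chr10:21993640-21993889, plus strand) and Sgk1-201 (chr10:21994416-21994665, plus strand) are shown to set these starts side by side. Capitals mark the palindrome, the hexamer TGTTCT and TATAAA; the palindrome contains TGTTCT on each strand.
Sgk1-202: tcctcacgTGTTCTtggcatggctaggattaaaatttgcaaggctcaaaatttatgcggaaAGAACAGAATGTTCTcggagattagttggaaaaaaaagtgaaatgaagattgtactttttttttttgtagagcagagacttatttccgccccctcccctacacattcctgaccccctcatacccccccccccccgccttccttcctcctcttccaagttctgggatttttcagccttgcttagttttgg
Sgk1-201: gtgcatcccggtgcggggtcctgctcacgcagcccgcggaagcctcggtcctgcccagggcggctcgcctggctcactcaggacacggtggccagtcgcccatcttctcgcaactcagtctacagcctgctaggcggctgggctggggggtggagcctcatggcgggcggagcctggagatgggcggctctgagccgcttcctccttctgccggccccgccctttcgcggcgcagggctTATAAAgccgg
The matched bases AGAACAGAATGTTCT lie at chr10:21993701-21993715, in an intron of Sgk1-203, which starts further upstream. They begin 189 bases before the start of Sgk1-202 and 965 bases before that of Sgk1-201. TGTTCT alone is common, in 16.1% of all windows, and was in 4 windows of the members, of Sgk1 and Tsc22d3. These matches are letters in a window, and binding was not measured here.

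**Figure D3:**
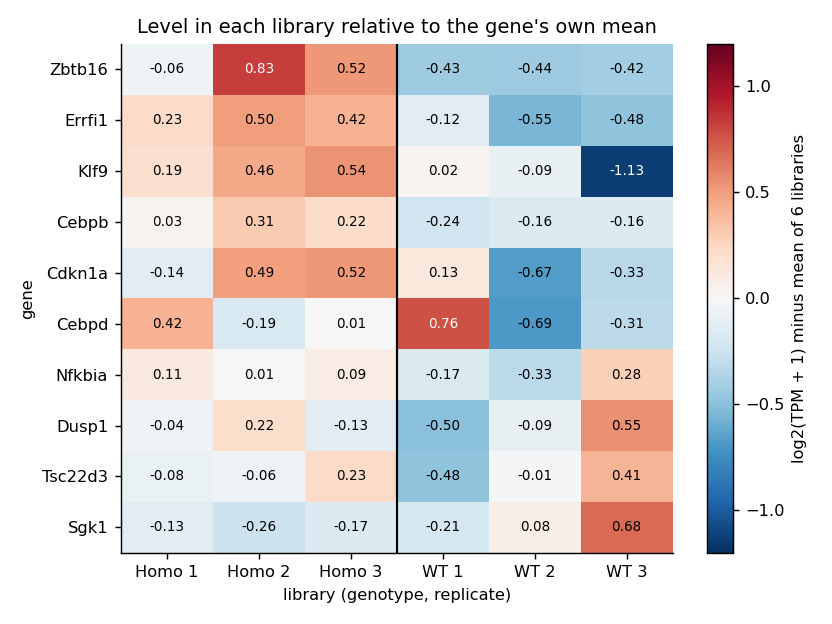
Level of each gene (rows) in each library (columns) as log2(TPM + 1) minus the gene's mean over the 6 libraries, in red above and blue below it. The value is printed in each cell, and the rows are not strictly in order of fold change. WT replicate 3 has the lowest Klf9 value (-1.13) and the highest values of Nfkbia, Dusp1, Tsc22d3 and Sgk1 (0.28, 0.55, 0.41 and 0.68).

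Isoforms of a gene can differ in start site and coding sequence, so the 36 rows were also read singly. Of them 24 passed the filter of 1 TPM in at least 3 libraries and 2 were at 0 throughout. In limma with Benjamini-Hochberg adjustment over 21165 isoforms, 0 of the 24 were called, as against 0.0425% of all isoforms. Homozygous libraries were all above WT for 7 of the 24, beside 25.6% of all isoforms, and all below for 1, beside 2.11%. These counts moved under rescaling: 3 were above and 2 below with quantile normalization (beside 9.03% and 7.9% of all isoforms), 4 and 2 with median centring (8.79% and 8.06%), and 4 and 2 with the length trend removed (8.82% and 8.15%), with Sgk1-201 joining Sgk1-202 below. The 7 above as reported were Errfi1-201, Errfi1-203, Klf9-201, Cebpb-201, Zbtb16-201, Tsc22d3-203 and Sgk1-205; Sgk1-205, a 270-nt row, passed the filter through the homozygous libraries alone and had to differ.

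The isoforms of Tsc22d3 came from starts 57472 bp apart. Tsc22d3-201 encodes the usual 137-residue protein, and was 111, 114 and 141 TPM in homozygous and 83.3, 130 and 164 TPM in WT libraries. Its groups overlapped, with a log2 difference of 0.00 (SE 0.26, limma adjusted p = 0.997). The distal start gives Tsc22d3-203, a protein of 201 residues, which was 16.6, 23.6 and 26.4 TPM in homozygous and 13.2, 12.2 and 8.57 TPM in WT libraries. All homozygous libraries were above all WT libraries, and the log2 difference was 0.91 (SE 0.24, limma adjusted p = 0.263), with 0.57 to 1.09 over the 15 other settings.

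As a share of the gene, Tsc22d3-203 was 11.7%, 16.4% and 15.0% in homozygous and 12.3%, 8.21% and 4.30% in WT libraries. These shares overlapped at the replicates numbered 1, and a two-sided exact permutation test over the 6 libraries gave p = 0.2. The smallest p this design allows is 0.1. Of 17 isoform shares tested this way, 0 had groups that did not overlap.

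The distal Sgk1-202 start, the one nearest the palindrome, gave the opposite order. This isoform of 445 residues was 2.42, 1.17 and 0.776 TPM in homozygous and 3.71, 3.37 and 5.76 TPM in WT libraries. Every homozygous library was below every WT library, and the log2 difference was -1.13 (SE 0.32, limma adjusted p = 0.268), negative in all 15 other settings. Its share of the gene, 1.12% to 3.42% in homozygous and 4.09% to 5.54% in WT libraries, was under the 10% set for a test of shares.

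The main Sgk1 isoform, Sgk1-201, starts 776 bp downstream and encodes 431 residues. It was 42.3, 47.2 and 55.1 TPM in homozygous and 49.3, 64.8 and 97.3 TPM in WT libraries. The groups overlapped at WT replicate 1, with a log2 difference of -0.49 (SE 0.26, limma adjusted p = 0.374). Without WT replicate 3 it was -0.23 (limma adjusted p = 0.546), and with the slow-fibre score in the fit -0.11.

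For Zbtb16 both coding isoforms, with starts 277 bp apart and the same 673-residue length, had the same direction. Zbtb16-201 was 8.39, 14.0 and 11.4 TPM in homozygous and 5.85, 6.15 and 6.66 TPM in WT libraries, with no overlap. Its log2 difference was 0.74 (SE 0.21, limma adjusted p = 0.269), and that of Zbtb16-202 was 0.94 (SE 0.36, limma adjusted p = 0.302) with overlap at homozygous replicate 1. In Errfi1 the full-length coding isoform Errfi1-201 had a log2 difference of 0.71 (SE 0.19, limma adjusted p = 0.263) and the short noncoding Errfi1-203 one of 0.79 (SE 0.23, limma adjusted p = 0.271).

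Dusp1 reads were divided between a spliced coding row and rows that retain introns. The coding row Dusp1-202 was 13.3, 29.9 and 21.5 TPM in homozygous and 10.8, 14.6 and 44.3 TPM in WT libraries. It made up 34.1%, 63.7% and 58.9% of the gene in homozygous and 38.2%, 38.7% and 74.4% in WT libraries (two-sided exact permutation p = 1.0). WT replicate 3 had the highest level and the highest spliced share.

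**Figure D4:**
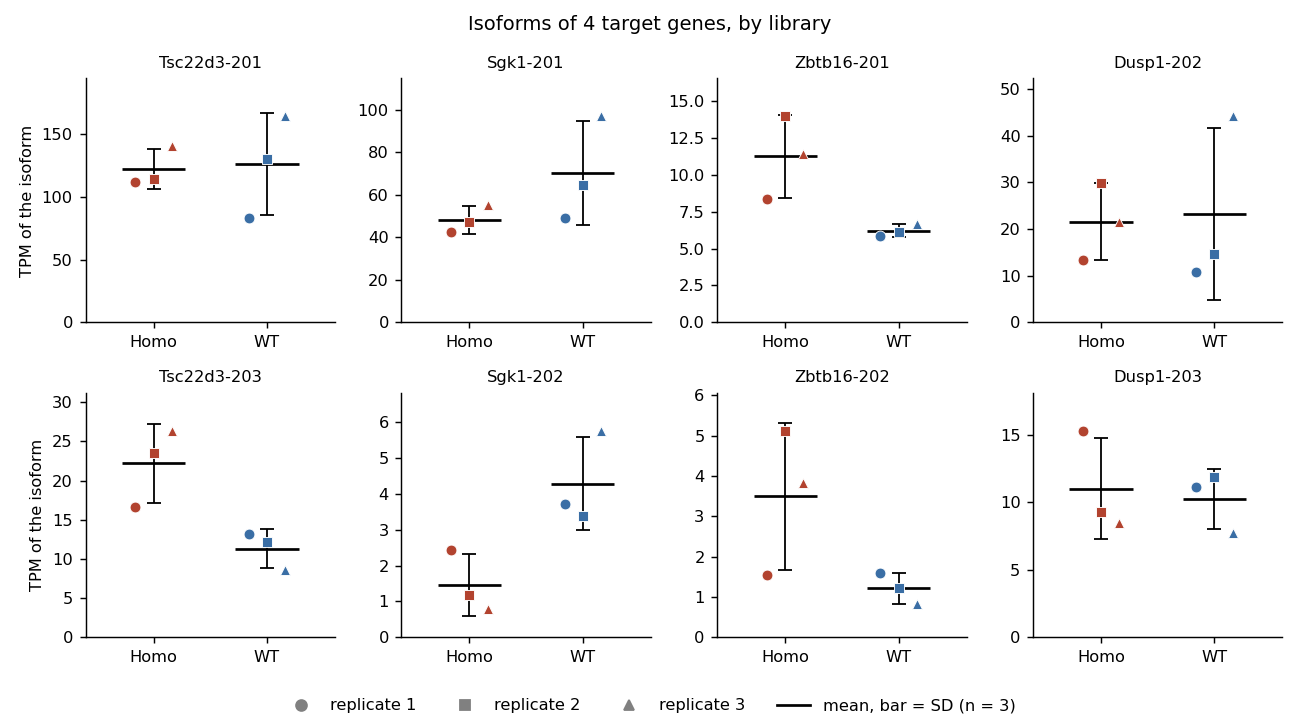
TPM (y axis, from 0) of isoform pairs of Tsc22d3, Sgk1, Zbtb16 and Dusp1 in the 3 homozygous (Homo) and 3 WT libraries, with marker shape for the replicate number and bars for the mean and SD. Tsc22d3-203 and Zbtb16-201 have all homozygous libraries above WT, Sgk1-202 has them all below, and the other 5 isoforms overlap.

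Each gene's pattern over the 6 libraries was set against 10922 other genes with a mean of at least 1 TPM, by Pearson's r of log2(TPM + 1), as a description over 6 libraries that share their overall differences. The closest gene to Tsc22d3 was Apopt1 (r = 0.998), to Zbtb16 Chp2 (0.997), to Klf9 Trmt6 (0.998), to Errfi1 Kansl2 (0.998) and to Cebpb Atp11b (0.998). For Sgk1 it was Hacd1 (0.993), for Dusp1 Nme7 (0.998), for Nfkbia Rpl23a (0.992), for Cebpd F11r (0.993) and for Cdkn1a Gstm2 (0.994). Klf9 had 1022 genes above r = 0.95 and Cebpd 8, so a high r was common for some members and rare for others.

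Genes of the surrounding pathways were counted from lists, each beside the same all-gene background of 34.7% with homozygous libraries above WT. The lists were counted only as reported. They were not counted under quantile normalization, median centring or removal of a length trend, where that background was 8.05%, 6.79% and 7.42%. Of 32 other glucocorticoid-responsive genes tested, 9 (28.1%) were above and 1 below without overlap, with a median log2 difference of 0.29, or 0.03 relative to all genes. Foxo1, a factor of the muscle atrophy program, was 4.95, 7.39 and 7.14 TPM in homozygous and 2.16, 3.03 and 2.95 TPM in WT libraries (log2 difference 1.01, SE 0.19, limma adjusted p = 0.168). Pik3r1, the regulatory subunit of PI3-kinase, had a log2 difference of 0.79 (SE 0.16, limma adjusted p = 0.168). Txnip, an inhibitor of glucose uptake, was 120 ± 65.4 TPM (SD, n = 3) in homozygous and 201 ± 88.1 TPM (SD, n = 3) in WT muscle, with overlap.

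The receptor, its hormone-activating enzymes and its cofactors had 12 of 18 tested genes above without overlap, and a median of 0.49, which is 0.22 above the all-gene median. Hsp90ab1, the chaperone that holds the receptor, averaged 574 ± 67.3 TPM (SD, n = 3) over the homozygous libraries and 428 ± 84.7 TPM (SD, n = 3) over the WT libraries, with overlap. In limma as reported 0 of the 18 passed the adjusted threshold; with array weights Nr3c1 itself did (limma adjusted p = 0.0396), and the array-weight calls of the other list genes are not given here.

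The lists tied to single members were counted in the same way. In the NF-kB pathway 8 of 12 tested genes were above without overlap (median 0.44, or 0.17 relative to all genes), and Nfkbib, a second inhibitor beside Nfkbia, was 46.1 ± 7.23 TPM (SD, n = 3) in homozygous and 29.6 ± 6.88 TPM (SD, n = 3) in WT muscle. Immediate early genes, which Dusp1 belongs with, had 8 of 19 above (median 0.29). Within them Atf3, a stress-induced repressor, was 5.54, 12.8 and 6.42 TPM in homozygous and 1.93, 2.02 and 2.30 TPM in WT libraries. Nr4a1, an orphan nuclear receptor, was 167 TPM in WT replicate 3 against 32.6 to 46.0 TPM in the other 5 libraries, and so had the same highest library as Dusp1.

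MAP kinase phosphatases and feedback genes, the class of Dusp1 and Errfi1, had 6 of 15 above (median 0.26), among them Dusp16 with a log2 difference of 0.42 (SE 0.14, limma adjusted p = 0.171). Targets of p53 and cell-cycle inhibitors, the class of Cdkn1a, had 4 of 13 above (median 0.32), and Mdm2, the ubiquitin ligase of p53, was 28.5 ± 2.61 TPM (SD, n = 3) in homozygous and 18.7 ± 3.06 TPM (SD, n = 3) in WT muscle. Paralogues of the members had 3 of 11 above (median 0.15), and Tsc22d1, a paralogue of Tsc22d3, was 46.8 ± 2.77 and 45.9 ± 5.05 TPM (SD, n = 3 each). In each of these 7 lists limma as reported called 0 genes at an adjusted p under 0.05.

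**Figure D5:**
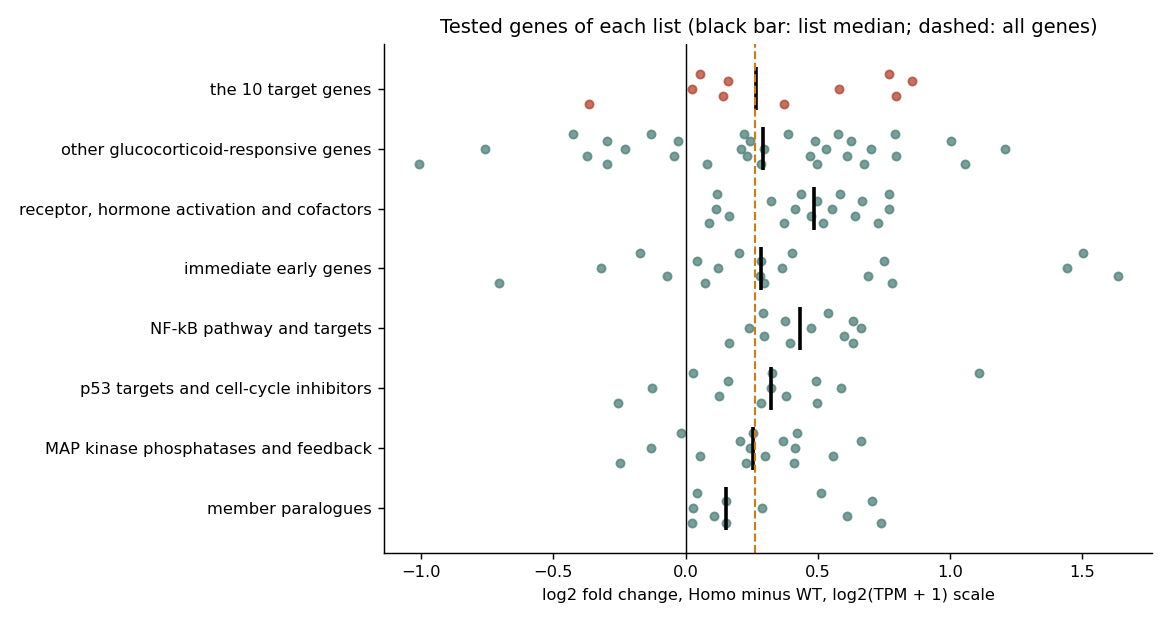
Log2 fold change (x axis, homozygous minus WT, in log2(TPM + 1) units) of every tested gene of the 10 targets and of 7 pathway lists, 1 point per gene, with a black bar for the list's median and a dashed line for the median of all tested genes. The median of the 10 targets (0.27) lies on the all-gene line (0.26), and the 18 receptor and cofactor genes have a median of 0.49.

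Markers of other cells were summed in each library. The 6 Schwann cell markers, with none at 0, summed to 29.1 to 106 TPM in homozygous and 16.3 to 25.4 TPM in WT libraries. The 11 immune markers summed to 34.8 to 53.2 and 11.4 to 47.5 TPM, and WT replicate 3 had the lowest sum. The 8 adipocyte markers summed to 1909 to 2298 TPM in homozygous and 1414 to 1714 TPM in WT libraries, but Car3, which muscle also expresses, made up most of each sum (1743 to 2150 and 1245 to 1536 TPM), and each of the other 7 markers overlapped. The 8 endothelial markers summed to 86.1 to 102 TPM in homozygous and 68.7 to 85.9 TPM in WT libraries. Of these 8, 3 (37.5%) were above without overlap, beside 34.7% of all genes. The 4 satellite cell markers summed to 4.37 to 4.56 and 2.49 to 3.94 TPM, but only Chodl was apart (2.93 to 3.47 and 1.59 to 2.37 TPM). Pax7, Myf5 and Calcr overlapped, and 1 of the 4 passed the filter. Sums of the 6 fibroblast markers (167 to 196 and 88.2 to 239 TPM) and the 5 blood markers (536 to 781 and 476 to 851 TPM) overlapped. The part of these cells in the levels of the 10 genes was not tested, and in bulk tissue more cells of a type and more RNA per cell cannot be told apart.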

How the data were processed

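Poly-A selected, strand-specific libraries were made from quadriceps of 6 mice, 3 per group, per the labels' protocols. The authors deposited TPM for each Ensembl transcript, scaled to 1000000 per library, per the file headers; kallisto, HISAT2, Trimmomatic, FastQC and the build mm10 are named in the submitters' processing notes, with no role or order. TPM keeps no read depth, so no counting interval is given. Reads shared by isoforms are divided by estimation, so an isoform's level is less certain than its gene's.

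Rows were summed by symbol. Genes and isoforms that reached 1 TPM in 3 or more libraries entered the test on log2(TPM + 1) with limma 3.58.1 in R 4.3.3 (trend, robust, genotype as the only term), with Benjamini-Hochberg adjustment over all of them; an adjusted p under 0.05 was a call, and the script was tested on simulated data. The scale understates changes of low genes. Settings compared were quantile normalization, median centring, mitochondrial transcripts left out, no filter, a pseudocount of 0.1, each library left out, a replicate block, array weights, a length trend removed and a slow-fibre covariate. Coordinates come from GENCODE M21 (GRCm38); 32 of the 36 rows matched with their version and 4 without it. Start windows are the 250 bases before RefSeq starts.

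All 10 genes and every isoform with a mean of 1 TPM or more in either group could be named, and from each list the 2 genes with the smallest p and the 1 with the largest mean. The members and lists were chosen with earlier results of these data known.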

Additional observations from a re-analysis of the deposited data

How the results depend on the processing

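The count of genes called in limma, 0 as reported, was 810 with array weights, which gave WT replicate 3 a weight of 0.199, and 0 to 2 with each library left out (2 without WT replicate 1 and 1 without WT replicate 2). At an unadjusted p under 0.05, the split of higher and lower genes, 2636 and 61 as reported, was 504 and 482 with quantile normalization, 405 and 512 with median centring, and 476 and 419 with the length trend removed. The count of isoforms called, 9 as reported, was 3 with quantile normalization, 5 with median centring, 5 without mitochondrial transcripts, 0 without a filter, 4 with a pseudocount of 0.1, 14 with array weights, 3 with the length trend removed and 0 with the slow-fibre covariate. It ranged from 0 to 38 with each library left out: 38 without WT replicate 1, 8 without WT replicate 2 and 0 without any of the other 4.

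Of the 10 target genes, 0 were called in every setting but array weights, where 3 were: Cebpb, Errfi1 and Zbtb16 (limma adjusted p = 0.0440, 0.0416 and 0.0412), beside 7.3% of all genes. The count with homozygous libraries above WT was 4 as reported, beside 34.7% of all genes, and 3 without mitochondrial transcripts, beside 2289 of 11680 genes. It was 1 with quantile normalization, median centring or the length trend removed, beside 8.05%, 6.79% and 7.42%. With each library left out it was 4 to 6, and the all-gene share rose too. That share ran from 4187 of 10832 genes (without homozygous replicate 2) to 5189 of 10943 (without WT replicate 2). Replicate numbers showed no sign of pairing: deviations of same-numbered libraries correlated at -0.07, 0.06 and -0.01, and differently numbered ones at -0.14 to 0.13. With 3 libraries per group these values cannot settle whether the mice were paired. With a replicate block 0 genes, 0 isoforms and 0 of the 10 targets were called. There 4 targets had homozygous libraries above WT, beside 3856 of 11099 genes.

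Some log2 differences changed sign. With quantile normalization, median centring and the length trend removed, in that order, Cebpd was -0.13, -0.14 and -0.18, Dusp1 -0.22, -0.28 and -0.22, Nfkbia -0.14, -0.16 and -0.069, Tsc22d3 -0.11, -0.24 and -0.20, and Tsc22d3-201 -0.18, -0.27 and -0.22. Cebpd was -0.36 with array weights, Sgk1 0.045 with the slow-fibre covariate and Tsc22d3-201 -0.010 without mitochondrial transcripts. With each library left out, Cebpd ranged from -0.15 to 0.58, Dusp1 from -0.22 to 0.31, Tsc22d3 from -0.17 to 0.28 and Tsc22d3-201 from -0.27 to 0.22. The cause was not tested in any of these cases. Over all 24 tested isoforms of the targets, 13 changed sign in at least 1 setting and 11 in none; Dusp1-202, for example, ranged from -0.31 to 0.67.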
